A study of Homo sapiens with 2 samples.

Results

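The integrated stress response genes examined here were GCN1, the kinase genes EIF2AK1, EIF2AK2, EIF2AK3 and EIF2AK4, and ATF4, DDIT3, PPP1R15A, TRIB3 and ASNS. These 10 of 19974 protein-coding genes were listed by name, and each was given every listed KDM1B peak with its midpoint inside the gene or up to 5 kb outside. KDM1B, also called LSD2, removes methyl groups from histone lysines with the help of flavin. Its binding was profiled by ChIP-seq in a triple-negative breast cancer line in long use, MDA-MB-231. There were 2 groups of 1 library each, an anti-FLAG M2 ChIP and an input, both from cells with a stably expressed 3xFLAG KDM1B that the retroviral vector pOZ had brought in. Both groups therefore held the tagged protein, and cells without the tag were not analysed here. With 1 library a group, replicate error could not be measured and nothing below carries a test. The list gives 1 log2 ratio of ChIP over input per peak, without read counts, so sequencing depth and counting error are unknown. The set was chosen by gene name with the positions and widths of these peaks known, and GCN1 was selected on the share of its span under 1 wide peak. Coverage and ratios of these genes are therefore given as a description.

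The integrated stress response slows protein synthesis in stressed cells. Different stresses each activate their own kinase of the translation initiation factor eIF2, and phosphorylated eIF2 blocks its exchange factor eIF2B. Most translation then falls while that of ATF4, a transcription factor, increases. ATF4 and its partner DDIT3 (CHOP) switch on genes of amino acid supply and, under lasting stress, of cell death. PPP1R15A (GADD34) closes the loop by bringing a phosphatase to eIF2. GCN1 binds ribosomes and is needed for activation of the kinase GCN2, the product of EIF2AK4, when amino acids run short.

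The genes differed widely. GCN1 lay almost wholly and DDIT3 largely under peaks, and EIF2AK1, EIF2AK2, EIF2AK4 and TRIB3 carried many short peaks. ATF4 had its start covered. PPP1R15A and EIF2AK3 had 1 short peak each, and ASNS had none. A peak by this rule was listed for 9 of the 10 genes, against 67.5% of all protein-coding genes, and these 9 had 103 peaks. Since the genes were chosen with these peaks in view, nothing is read from that count. The median log2 ratio of the 103 peaks was 3.06, against 2.99 in the whole list of 78536 peaks, and 52.4% of them lay above the median of the list. Their median width was 938 bp, against 804 bp in the whole list.

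A peak lay over the promoter window, from 250 bases before to 50 after the annotated start, in 6 of the 9 genes with a window in the RefSeq table (GRCh38.p14), GCN1, EIF2AK2, EIF2AK4, ATF4, DDIT3 and TRIB3. Of 15813 protein-coding genes with a window, 34.4% had a peak over it. EIF2AK3, PPP1R15A and ASNS had none there. The 250 bases before the start are shown for 4 genes wholly under a peak in this stretch (GCN1, EIF2AK4, ATF4 and DDIT3) and for PPP1R15A, which had no peak there. They are written 5′ to 3′ along the gene, with matches to the motifs searched in capitals.
GCN1, chr12:120194716-120194965, minus strand: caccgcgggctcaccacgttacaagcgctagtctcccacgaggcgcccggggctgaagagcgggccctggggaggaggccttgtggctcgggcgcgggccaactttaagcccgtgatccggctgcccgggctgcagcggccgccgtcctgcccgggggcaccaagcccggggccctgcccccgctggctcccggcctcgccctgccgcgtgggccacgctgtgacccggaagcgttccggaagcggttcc
EIF2AK4, chr15:39933865-39934114, plus strand: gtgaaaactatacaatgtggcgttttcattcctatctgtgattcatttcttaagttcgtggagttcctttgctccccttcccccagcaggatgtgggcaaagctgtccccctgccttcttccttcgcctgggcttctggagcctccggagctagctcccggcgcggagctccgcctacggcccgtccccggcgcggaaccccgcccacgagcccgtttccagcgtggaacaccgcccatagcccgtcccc
ATF4, chr22:39520309-39520558, plus strand: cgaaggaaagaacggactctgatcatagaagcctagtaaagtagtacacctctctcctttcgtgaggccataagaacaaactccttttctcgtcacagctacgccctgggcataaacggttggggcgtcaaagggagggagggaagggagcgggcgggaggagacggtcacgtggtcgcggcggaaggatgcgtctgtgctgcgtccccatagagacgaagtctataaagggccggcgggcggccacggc
DDIT3, chr12:57520518-57520767, minus strand: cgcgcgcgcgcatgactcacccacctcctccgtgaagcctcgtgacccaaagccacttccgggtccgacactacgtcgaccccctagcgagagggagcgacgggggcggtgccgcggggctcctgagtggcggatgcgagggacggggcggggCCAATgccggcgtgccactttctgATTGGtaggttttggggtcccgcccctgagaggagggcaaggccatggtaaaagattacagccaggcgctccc
PPP1R15A, chr19:48872171-48872420, plus strand: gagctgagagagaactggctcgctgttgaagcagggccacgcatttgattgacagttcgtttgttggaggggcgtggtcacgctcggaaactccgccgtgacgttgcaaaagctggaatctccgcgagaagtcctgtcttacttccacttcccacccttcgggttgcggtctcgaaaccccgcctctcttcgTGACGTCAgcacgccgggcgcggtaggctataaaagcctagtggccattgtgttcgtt

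The motifs were searched on both strands of these 250 bases. They were the C/EBP-ATF response element core TGATGNAA, a binding sequence of ATF4, the cAMP response element TGACGTCA and the CCAAT box CCAAT. The endoplasmic reticulum stress element, CCAAT followed after 9 bases by CCACG, contains a CCAAT box. DDIT3 held CCAAT on both strands, with the first bases 97 and 73 bp before the start, and PPP1R15A held TGACGTCA 58 bp before it. GCN1, EIF2AK4 and ATF4 held no match. The core TGATGNAA occurred in ASNS only, 68 bp before a start at position 97872408 that lies inside the annotated span of the gene. It is shown with 11 bases on each side because ASNS is a textbook target of ATF4 and had no peak (chromosome 7, minus strand, match in capitals).
ASNS, chr7:97872458-97872487: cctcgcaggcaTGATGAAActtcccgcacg
Of 22156 windows of protein-coding genes, 2.36% held TGATGNAA, 2.01% TGACGTCA, 32.7% CCAAT and 0.0993% the stress element. None of the 9 genes held the stress element in its exact letters, and no mismatch was allowed in that search. In DDIT3, CCAAT is followed after 9 bases by CCACT on the strand printed and by GCACG on the other, each 1 letter from CCACG. EIF2AK2 and EIF2AK3 also held CCAAT. GC content of the 250 bases was 75.2% in GCN1, 72.4% in EIF2AK2, 61.6% in EIF2AK4, 58.4% in ATF4 and 67.6% in DDIT3. These stretches were all wholly under a peak. In TRIB3, whose stretches were partly under a peak, GC content was 77.6 to 78.8%. In the genes without a peak there it was 57.2% in PPP1R15A, 55.2% in EIF2AK3, and 66.0% and 72.8% before the starts of ASNS, so the ranges overlapped.

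GCN1 (gene ID 10985, chromosome 12, 120127202 to 120194715, minus strand, hg38) encodes a ribosome-associated protein of the amino acid branch. Peaks covered 98.1% of its 67.5 kb and left 1314 bp bare. A single peak of 60.1 kb (120124236 to 120184367) had a log2 ratio of 3.86, a linear ratio of 14.5, and alone covered 84.7% of the gene. This peak ranked 3 by width in the whole list. Its ratio was higher than that of 84.4% of all peaks. It was also higher than 70.0% of the 40 peaks of 20 kb or more, whose log2 ratios ran from 3.08 to 4.51 with a median of 3.72. It ran past the far end of GCN1 by 2965 bp and overlapped no other protein-coding gene.

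Towards its start the gene passed under 3 shorter peaks with ever lower ratios. The wide peak ended 10.3 kb inside the start. After a gap of 46 bp came a peak of 7.48 kb with a log2 ratio of 3.05 (120184413 to 120191891). Next came a peak of 1005 bp with a ratio of 2.40 (120192802 to 120193807). The last, of 1000 bp with a ratio of 1.82, lay over the start itself (120194164 to 120195164), and it covered the whole promoter stretch printed above. That value was low for the list, with 0.791% of all peaks below it. The gaps between these last peaks were 911 and 357 bp. The other 4 of the 8 peaks of GCN1 lay in its flanks, 1 beyond the far end with a ratio of 2.37 and 3 before the start with ratios of 2.05, 3.14 and 3.33. The outermost had its midpoint 4651 bp from the gene. The next peak, just beyond the 5 kb limit, lay at 6400 bp with a ratio of 2.202.

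**Figure D1:**
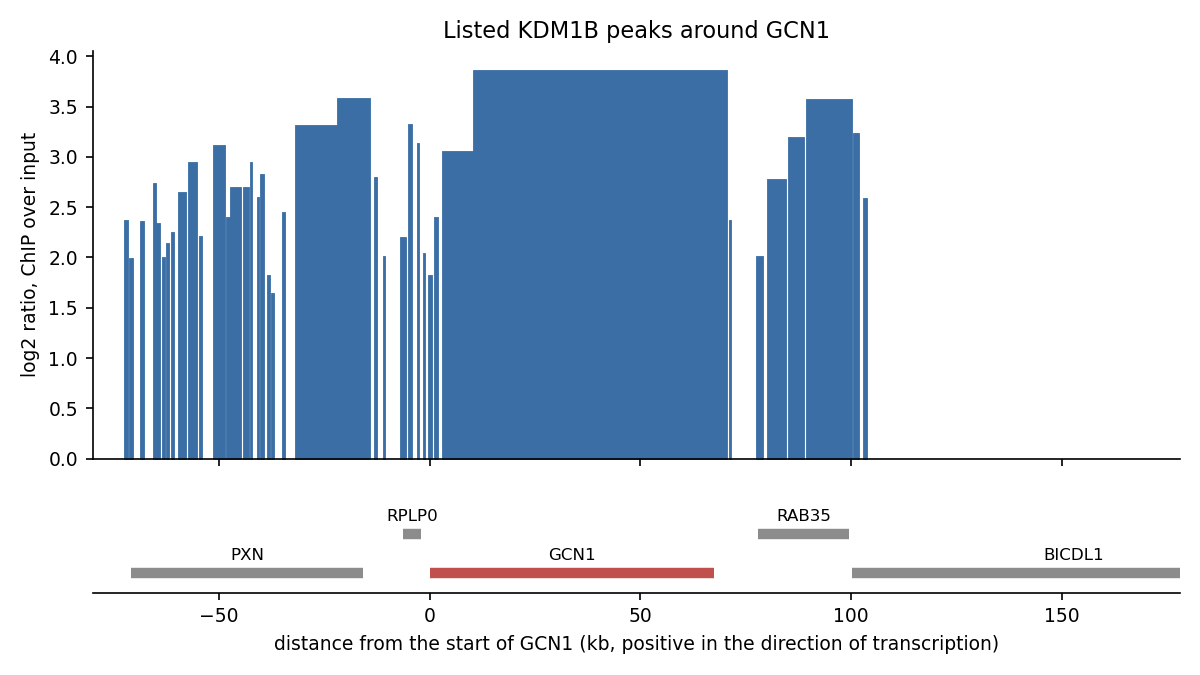
Listed peaks around GCN1, drawn from start to end of each peak with its log2 ratio of ChIP over input as height (1 ChIP and 1 input library), over the protein-coding genes of the region (grey, GCN1 red). The x axis is the distance from the start of GCN1 in kb. The block at 3.86 spans most of GCN1, and steps of 3.05, 2.40 and 1.82 lead to its start.

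No gene of like length had as much of its span under peaks. Of the 500 protein-coding genes nearest in length (63.9 to 71.7 kb), all 500 lay below GCN1 both in span covered and in span under 1 peak. Their median span covered was 2.19% (quartiles 0.0936 and 11.2%), and 26.2% of them had no peak midpoint inside. The 5 genes most like GCN1 by span under 1 peak were PFKP, PIEZO1, CHD8, SNX6 and NUP160. PFKP, a phosphofructokinase of glycolysis, had 41.0% of its span under 1 peak of 32.9 kb (log2 ratio 3.98). The mechanically gated channel gene PIEZO1 had 22.9%, the chromatin remodeller CHD8 22.2%, the sorting nexin SNX6 21.2% and the nuclear pore gene NUP160 19.5%. A single peak covered 10% or more of the gene in 19 of the 500, and 25% or more in 1. Of all protein-coding genes, 1.35% had 50% or more of their span under 1 peak. Most of those that reached the share of GCN1 were short. They numbered 67 besides GCN1, with a median length of 1.46 kb, and 55 were under 10 kb. Among the 4852 genes as long as GCN1 or longer, only FANCA, a DNA repair gene of 79.1 kb chosen after its values were seen, had a share as large (98.4%).

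GCN1 carried few peaks for its coverage. It had 0.592 peak midpoints per 10 kb, higher than in 61.8% of the genes of like length, against 4.603 in EIF2AK1, 3.63 in EIF2AK2 and 3.25 in EIF2AK4. No source used here says whether the peak caller joined neighbouring peaks, so the number of peaks in a gene depends on an unknown setting.

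**Figure D2:**
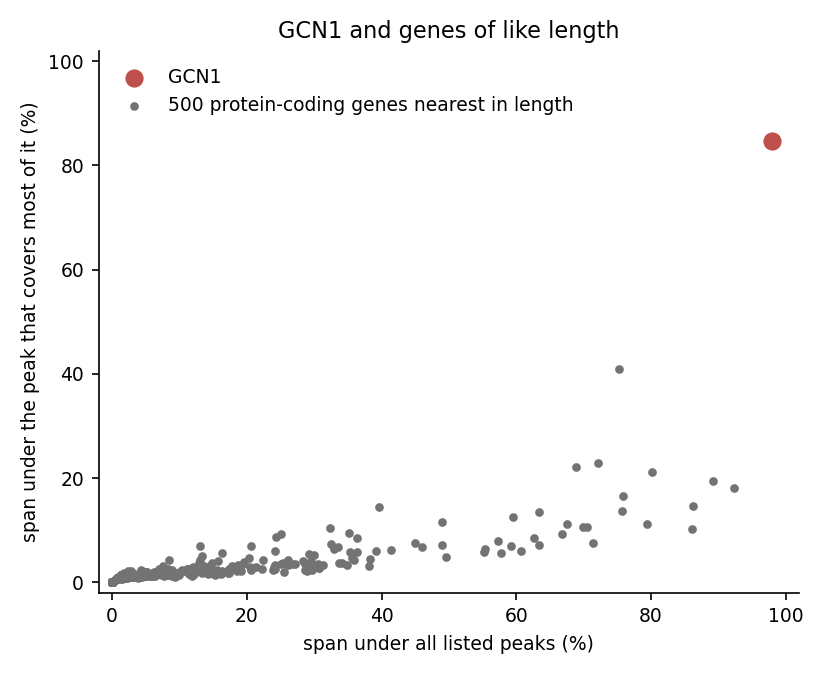
Percent of the gene under all listed peaks (x axis) and under the 1 peak that covers most of it (y axis), for GCN1 (red) and the 500 protein-coding genes nearest to it in length (grey). GCN1 stands at 98.1% and 84.7%, and the next highest gene on the y axis, PFKP, at 41.0%.

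The genes beside GCN1 were also under peaks, with bare sequence farther out. RAB35, a small GTPase of endosomal recycling 10.4 kb beyond the far end, was covered over 91.4% of its 21.7 kb, with 47.8% under 1 peak. On the other side, 1.98 kb before the start, the ribosomal stalk protein gene RPLP0 was covered over 50.3%, and 5 of the 8 peaks of GCN1 lay in or within 5 kb of it. The focal adhesion gene PXN, 15.7 kb before the start, was covered over 69.8% by 22 peaks. Beyond them BICDL1 (3.29%) and SIRT4 (4.63%) were nearly bare, and PLA2G1B and MSI1 had none. The covered share of the flanks depended on their length. Beyond the far end of GCN1 it was 70.7% of 5 kb, 36.7% of 10 kb and 53.9% of 50 kb, and before the start it was 46.4%, 39.5% and 68.3% over the same lengths.

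The 4 kinases share the step of eIF2 phosphorylation but not a peak pattern. Together they had 77 of the 103 peaks, of which 76 lay in or within 5 kb of EIF2AK1, EIF2AK2 and EIF2AK4. EIF2AK1 (HRI), activated by haem shortage and mitochondrial stress, had 20 peaks over its 36.9 kb and flanks (chromosome 7, 6022247 to 6059175). Their log2 ratios ran from 2.43 to 4.29 with a median of 3.46, and 15 of 20 lay above the median of the list. They covered 45.7% of the gene, more than in 87.2% of the genes of like length. Of 5 equal parts of the gene, the middle one was covered over 83.3%, while the next one towards the higher coordinate was bare, within a gap of 9.37 kb. EIF2AK1 overlaps AIMP2, a subunit of the tRNA synthetase complex, and ANKRD61, and 8 and 9 of its 20 peaks lay in or within 5 kb of those genes. Its strongest peak (6020404 to 6022371) lay mostly in AIMP2, outside EIF2AK1. Counting only midpoints inside the gene, the strongest was 3.99.

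EIF2AK2 (PKR), the kinase activated by double-stranded RNA, had 21 peaks, all with midpoints inside its 57.8 kb (chromosome 2, 37099210 to 37156980, minus strand). Their log2 ratios had a median of 2.71 (2.12 to 4.34), against 3.46 in EIF2AK1, and 6 of 21 lay above the median of the list. They covered 41.5% of the gene, more than in 90.6% of the genes of like length, and, of 5 equal parts, most densely the middle one, at 68.6%. With only the stronger 50% of the list, 8.15% of the gene was covered, more than in 80.0% of the genes of like length. The peak over the start (37156335 to 37157427) had a ratio of 2.42, and 18 of the other 20 peaks were higher. The highest, 4.34, lay 46.8 kb downstream (37109951 to 37110469). A further peak with its midpoint 5012 bp beyond the far end lay just outside the limit. EIF2AK2 overlaps GPATCH11, and 2 of its 21 peaks had midpoints within 5 kb of that gene but did not lie over it.

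EIF2AK4 (GCN2), the partner of GCN1, had 35 peaks, more than any other of the 10 genes, over its 101.5 kb (chromosome 15, 39934115 to 40035591, plus strand). The widest measured 2516 bp and the median was 886 bp, against 804 bp in the whole list. They covered 33.8% of the gene, more than in 95.4% of the genes of like length, and each of its 5 equal parts over 25.8 to 40.6%. The log2 ratios ran from 2.11 to 5.49 with a median of 3.23, and 22 of 35 lay above the median of the list. The highest, 5.49, is 1 of 7 peaks of this gene whose linear ratio is a whole multiple of a common step of 2.64. Of all peaks in the list, 12.4% have such a ratio. Without these 7 peaks of EIF2AK4 the highest was 4.33. The peak over the start (39932993 to 39934966), which covers the promoter stretch printed above, had 3.16. The next gene, SRP14 of the signal recognition particle, lies on the minus strand, and 2 of these peaks lay in or within 5 kb of it. Its far end lies 99 bp beyond that of EIF2AK4. GCN1 and EIF2AK4 were both covered more than most genes of their length, GCN1 by 1 wide peak and EIF2AK4 by many short ones. This was not particular to them. DDIT3, EIF2AK2, EIF2AK1 and TRIB3 stood above 98.8%, 90.6%, 87.2% and 84.4% of genes of like length, ATF4 above 80.0% and PPP1R15A above 71.0%. EIF2AK3 and ASNS did not stand above most. Any link to the joint action of the products of GCN1 and EIF2AK4 was not tested.

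EIF2AK3 (PERK), the kinase of the endoplasmic reticulum branch, stood apart from the other 3. Its 71.4 kb (chromosome 2, 88556741 to 88628145, minus strand) held 1 peak of 530 bp, 42.7 kb from the upper end of the gene (88585160 to 88585690). The log2 ratio of this peak was 5.49, near the top of the list. Its linear ratio of 44.9 was also a whole multiple of that step, as are those of 12.4% of all peaks. The read counts behind it are unknown. The peak covered 0.742% of the gene, more than in 30.2% of the genes of like length. The next peak lay 21.4 kb from the gene. Of the genes of like length 21.6% had no peak in the gene or within 5 kb, so a nearly bare gene of this length was common.

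**Figure D3:**
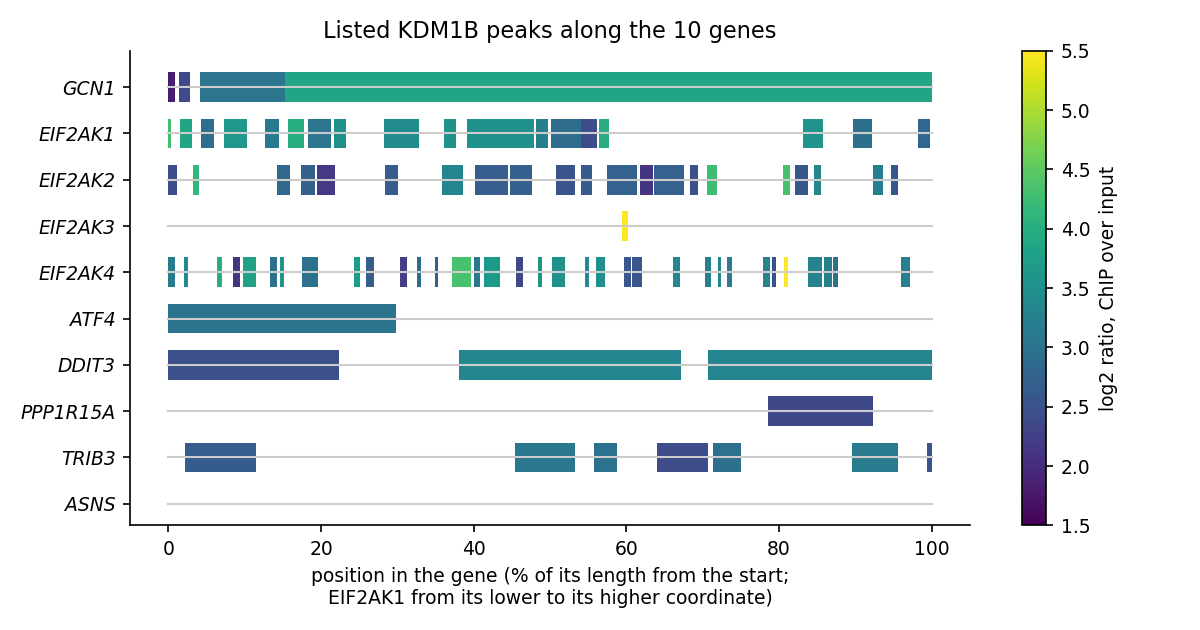
Listed peaks along the 10 genes, each gene scaled to its own length and drawn from its start (EIF2AK1 from its lower coordinate), with the log2 ratio of ChIP over input as colour. GCN1 is filled almost throughout, EIF2AK1, EIF2AK2 and EIF2AK4 carry rows of short peaks, EIF2AK3 has 1 peak of 5.49 and ASNS none.

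ATF4, the transcription factor at the centre of the response, is a short gene of 2.13 kb (chromosome 22, 39520559 to 39522686, plus strand). One peak of 1048 bp (39520145 to 39521193, log2 ratio 3.03) lay over its start and its promoter stretch and covered 29.8% of the gene, more than in 80.0% of genes of like length. A second peak of 592 bp (39523448 to 39524040) lay beyond the far end, with its midpoint 1058 bp outside. Its ratio of 5.72 was above 99.0% of the list and was also a whole multiple of the common step. The upstream neighbour MIEF1, a mitochondrial dynamics factor, shares 1 of these peaks.

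DDIT3 (CHOP), the partner of ATF4 linked to cell death, was covered over 80.7% of its 3.93 kb (chromosome 12, 57516588 to 57520517, minus strand), more than 98.8% of the genes of like length, whose median was 0%. The peak over the start (57519637 to 57520893) had a log2 ratio of 2.47, and that in mid-gene (57517879 to 57519019) 3.33. A wide peak of 5.55 kb (57512182 to 57517737, ratio 3.32) ran over the far end but lay 20.7% in DDIT3 and otherwise in MARS1, the methionyl-tRNA synthetase gene that overlaps it on the other strand. MARS1 itself was covered over 87.4% of 28.6 kb. DDIT3 also lies 198 bp from MBD6 and overlaps LOC128125814, and all 5 of its peaks lay in or within 5 kb of another gene. The coverage of DDIT3 and that of MARS1 cannot be told apart where the genes overlap.

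PPP1R15A (GADD34), the stress-induced subunit of the eIF2 phosphatase, had 1 peak of 500 bp, the smallest width in the list (48875280 to 48875780). It lay towards the far end of the 3.64 kb gene (chromosome 19, 48872421 to 48876058, plus strand), with a log2 ratio of 2.37, above 13.2% of the list. It covered 13.7% of the gene, more than in 71.0% of genes of like length. The promoter stretch printed above, with its cAMP response element, was bare.

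TRIB3, a pseudokinase induced by ATF4 and DDIT3, had 10 peaks over 16.8 kb and its flanks (chromosome 20, 380760 to 397559, plus strand). They covered 37.1% of the gene, more than in 84.4% of genes of like length. With only the stronger 50% of the list, 16.8% was covered, more than in 85.2%. The log2 ratios of the 10 peaks ran from 2.42 to 3.15 with a median of 2.80, against a median of 2.99 and a lower quartile of 2.58 in the whole list. A peak of 1556 bp (381128 to 382684, ratio 2.65) lay over a start listed at 381295, and the second of 5 equal parts of the gene was bare.

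ASNS, asparagine synthetase, had no peak in its annotated span of 76.8 kb or within 5 kb (chromosome 7, 97851677 to 97928441, minus strand). The nearest had its midpoint 40.2 kb away, with a ratio of 3.40. Its neighbours TAC1 and OCM2, 111 and 56.2 kb away, had none either. Of the 500 genes nearest in length 22.8% had no peak by the same rule, and 125 had, like ASNS, no base under a peak. Both starts of ASNS in the promoter table lie well inside this span.

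**Figure D4:**
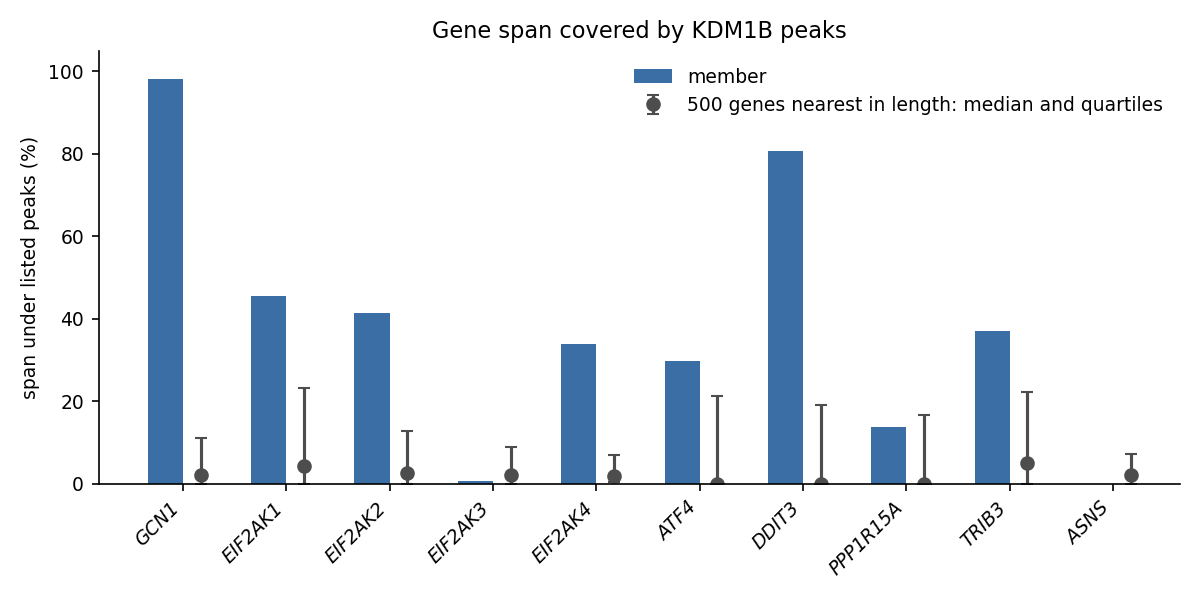
Percent of each gene's span under listed peaks (bars), beside the median and quartiles of the 500 protein-coding genes nearest in length (points and whiskers). GCN1 at 98.1% and DDIT3 at 80.7% stand highest, and EIF2AK3 and ASNS lie below the median of their genes of like length.

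Seen together, 8 of the 10 genes lay above the median span covered of their genes of like length and 7 above the upper quartile. By construction at most 50% of the genes of like length lie above their median, and fewer above the upper quartile. That median was 0% for ATF4, DDIT3 and PPP1R15A, so any covered base put these 3 above it. As with the count of genes with a peak, nothing is read from these counts. A share of 50% or more was reached by GCN1 and DDIT3, against 7.28% of all protein-coding genes. Either end had a peak midpoint within 1 kb in 8 of 10, against 41.9% of all protein-coding genes. With only the stronger 50% of the list it was 3 of 10, against 16.5% of all protein-coding genes. Among the 9 genes with a known strand, the peak lay at the start in 5 (GCN1, EIF2AK2, EIF2AK4, ATF4 and DDIT3), against 36.5% of genes with a strand. It lay at the far end in 2 (PPP1R15A and TRIB3), against 17.4%. Starts here are the outer edges of the annotated spans. For TRIB3 this edge is 380760, and the peak over its listed start at 381295 had its midpoint 1146 bp inside. That peak was therefore not counted as a start peak here or in the comparison below.

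The peak at the start had a lower ratio than the median of the other peaks in the same gene in GCN1, DDIT3, EIF2AK2 and EIF2AK4, by little in EIF2AK4. The log2 ratio at the start of GCN1, 1.82, differed by -1.23 from the median of its other 3 peaks, all of which were higher. The difference was -0.85 in DDIT3, which has 1 other peak with its midpoint inside, -0.30 in EIF2AK2, where 18 of 20 other peaks were higher, and -0.08 in EIF2AK4, where 19 of 33 were. Of the 2961 protein-coding genes with a start peak and at least 3 others inside, 76.1% had the start peak below the median of the others, and the median difference was -0.37. GCN1 had a wider difference than the median of these genes, EIF2AK2 and EIF2AK4 a smaller one, and DDIT3 has too few peaks to be among them.

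Other genes of the pathway were taken from 5 lists by role, 97 genes in all. By the same rule 89 of them had a peak, against 67.5% of all protein-coding genes, and 65 had one at a gene end, against 41.9%. The median span covered was 35.5% in the 10 genes, 15.1% in the 97 and 1.52% in all protein-coding genes. By median rank, the 97 stood above 72.2% of their genes of like length. At least 50% of the span was covered in 19 of the 97, against 7.28% of all protein-coding genes, and under 1% in 12, against 46.8%.

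The subunits of eIF2 and eIF2B, the target of the kinases and its exchange factor, had the highest median of the 5 lists, 44.7%. All 8 had a peak (67.5% of all protein-coding genes had one), and 4 were covered over 50% or more, against 7.28% of all protein-coding genes. EIF2B4 reached 86.0% and EIF2B1 82.3%, both exchange factor subunits, and EIF2S2, the beta subunit of eIF2, 64.4%. Regulators of the kinases and phosphatases had a median of 22.2%, and 23 of 24 had a peak, against the same 67.5%. ABCF2, of the ATP-binding cassette F family, reached 62.8%, PPP1CA, the catalytic phosphatase subunit that PPP1R15A recruits, 61.3% and the GTPase gene DRG1 58.3%. PPP1R15B, the constitutive counterpart of PPP1R15A, was the 1 gene of that list without a peak. 

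ATF4 target genes had a median of 14.6%, and 35 of 39 had a peak, against 67.5% of all protein-coding genes. The most covered were NARS1, the asparaginyl-tRNA synthetase gene, at 76.2%, SLC7A5, a leucine transporter, at 67.4% and SLC1A5, a glutamine transporter, at 63.3%. The 4 without a peak were, like ASNS, bare: PHGDH, the first enzyme of serine synthesis, CBS of transsulfuration, and the secreted stress factors FGF21 and GDF15. Stress-induced transcription factors had a median of 8.23%, with 9 of 10 carrying a peak (all protein-coding genes 67.5%). QRICH1 reached 67.5%, CEBPB 59.5% under 1 peak over its start, and ATF5 15.1%, while NUPR1 had no peak. The IRE1 and ATF6 branches and their chaperones had a median of 10.3%, with 14 of 16 carrying a peak (all protein-coding genes 67.5%). The chaperones HYOU1 (84.6%), HSP90B1 (72.1%) and the disulfide isomerase PDIA4 (68.5%) led, and ATF6B and CREB3L2 had no peak. More than 50% of the span lay under 1 peak in HYOU1 (66.8%), CEBPB (59.5%) and PPP1CA (57.9%), the only such genes among the 97. Of all protein-coding genes, 1.35% had 50% or more of the span under 1 peak.

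**Figure D5:**
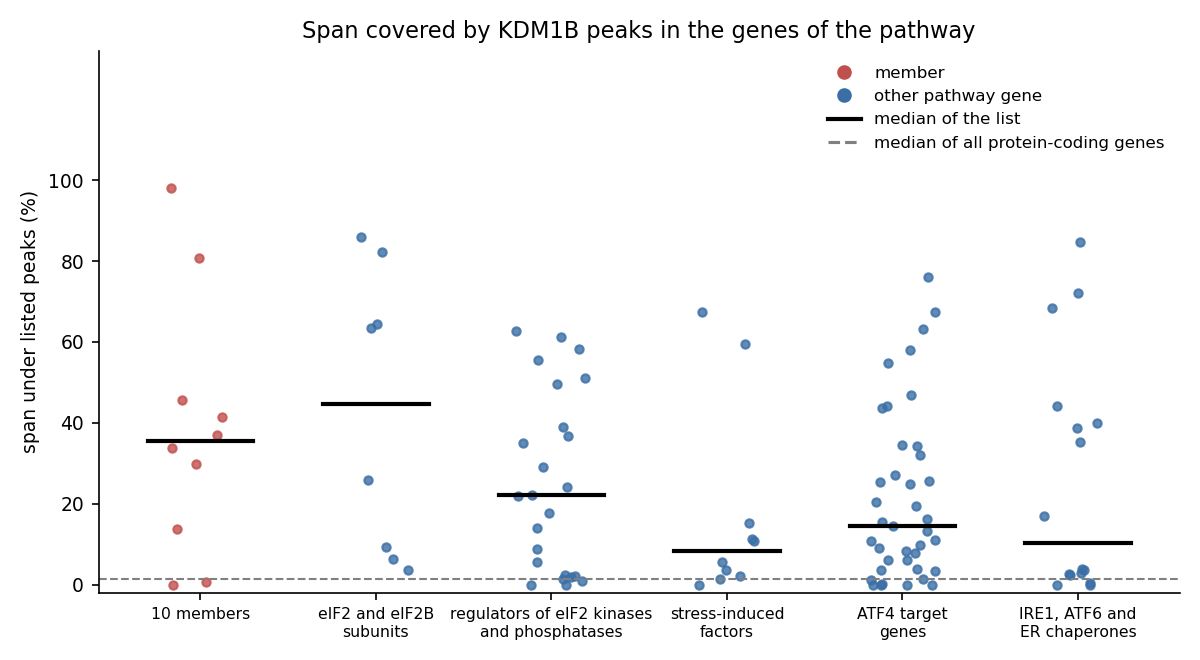
Percent of the span under listed peaks for each of the 10 genes (red) and the 97 other genes of the pathway (blue), by role. Black bars are list medians, from 8.23% in stress-induced factors to 44.7% in eIF2 and eIF2B subunits, and the dashed line is the median of all protein-coding genes, 1.52%.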

How the data were processed

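Formaldehyde-fixed chromatin was sheared and enriched with anti-FLAG antibodies, per the labels' protocols. The submitters' processing notes name Trim Galore 0.4.5, Bowtie2 2.2.9 and hg38. No source used here names the peak caller, its thresholds or any joining of peaks. The authors deposited chromosome, start, end and a log2 ratio (ChIP over input) per peak, and the ratios served only to describe and rank peaks within the list. That they are on a log2 scale was read from the values. In linear form, 12.4% of them are whole multiples of a common step of 2.64 (tolerance 1e-06). The step was set from the highest ratios, nearly all of which are whole multiples of it. Starts were treated as counted from 0, and coordinates are printed as deposited.

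Gene spans on chromosomes 1 to 22 and X and promoter sequences came from RefSeq (GRCh38.p14), and strand from the promoter table, which held 9 of the 10 genes. EIF2AK1 has no entry there. Exon and intron positions were not used here. Span covered is the percent of a gene's bases under peaks. It was ranked among the 500 protein-coding genes nearest in length, 250 shorter and 250 longer. A peak was shared when its midpoint lay in or within 5 kb of both genes. Genes named were the 10 members, the 3 most covered of each other list, the 5 most like GCN1 by span under 1 peak, neighbours and genes that share a peak. Those without a peak and those with more than 50% under 1 peak were chosen after their values were seen. The members and lists were chosen with earlier results of these data known. No test was run, since each group held 1 library. Functions were tested on simulated data, with Python 3.11.15, pandas 2.3.3 and numpy 2.4.6.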

Additional observations from a re-analysis of the deposited data

How the results depend on the processing

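No paired analysis was possible because each group held 1 library. A peak was listed for 8 or 9 of the 10 genes under each of the 5 alternatives tried, and for 67 to 89 of the 97 other genes of the pathway. With midpoints in the gene only, it was 9 of the 10 and 80 of the 97, against 58.2% of all protein-coding genes. By the main rule the share of all protein-coding genes was 67.5%. It is not given for the other alternatives, so their counts cannot be set against it. GCN1 kept a share of its span under 1 peak above at least 99.9% of its genes of like length under each alternative, and with peaks within 1 kb joined that share was 100%. With only the stronger 50% of the list, gene-end peaks were found in 3 of 10 genes, against 8 with the whole list, and the covered span of EIF2AK2 fell to 8.15%, against 41.5%, and that of TRIB3 to 16.8%, against 37.1%. The median over 9 genes of the strongest peak was 4.29. With the stronger 50% of the list it was 4.32 over 8 genes, each of which kept its strongest peak, since PPP1R15A had none left. It was 3.86 over 9 genes with midpoints in the gene only or within 1 kb. Without whole multiples of the common step, an alternative chosen after seeing the data, it was 3.59 over 8 genes, without EIF2AK3. By construction, the midpoint settings drop flank peaks of ATF4 and others, and the last setting drops whole multiples. No other cause was tested. The median rank of span covered was above 85.8% of genes of like length, and above 90.0% against 50 genes of the same chromosome. For single genes, 16 of 70 ranks and 5 of 43 strongest peaks moved. The only peak of EIF2AK3 is a whole multiple, and that of PPP1R15A is among the weaker 50%, so each gene is bare without it. Allowing 1 mismatch in TGATGNAA left 1 of 9 genes, ASNS, with a match, while the share of all promoter windows with one was 33.1%, against 2.36% for the exact letters. Without read counts, the precision of single ratios and low coverage in shallow regions are unknown.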

Other observations

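Among the genes of the unfolded protein response, the 3 sensors that sit in the endoplasmic reticulum membrane were covered over less of their span than some chaperone genes of the same response, but not less than all. This contrast was noticed after the values were seen and was not tested. Peaks covered 0.742% of EIF2AK3, 2.63% of ERN1, which encodes the RNA-cleaving sensor IRE1, and 0.476% of ATF6, which encodes a sensor released by cleavage. The chaperone genes HYOU1 and HSP90B1 were covered over 84.6% and 72.1%, and HSPA5, the BiP chaperone gene, over 44.2%. The co-chaperone genes DNAJB9 and DNAJC3 were also sparsely covered, over 2.99% and 0.984%. The sensor genes are longer, at 71.4, 91.0 and 198 kb, against 13.0, 17.5 and 6.49 kb for HYOU1, HSP90B1 and HSPA5. Within their own length, the sensors stood above 30.2%, 54.6% and 41.4% of genes, these chaperones above 98.8%, 94.2% and 90.4%, and DNAJB9 and DNAJC3 above 57.2% and 44.2%.

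Serine synthesis, a pathway that ATF4 induces, was covered unevenly along its 3 steps. PHGDH, the first enzyme, had no peak. PSAT1, the second, had 12 peaks in or within 5 kb of it and 44.1% of its span covered, and PSPH, the last, had 13 and 27.1%. Of the genes nearest in length to PHGDH, 27.6% had no peak by the same rule. PSAT1 and PSPH stood above 86.2% and 79.0% of their genes of like length. PHGDH, PSAT1 and PSPH too were picked after their values were seen, and no test was run.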
